A study of Mus musculus with 12 samples.

Results

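The comparison is between mouse embryonic stem cells given a high dose of hydrogen peroxide and cells kept in phosphate-buffered saline (PBS), 8 of the 12 arrays of the study. The cells of every group were clone C2, made from the E14tg2a embryonic stem cell line, with 2 recognition sites for the endonuclease I-SceI targeted into the genome. High-dose cells stood in PBS with 5 mM peroxide for 30 min and recovered for 1 h before RNA was taken (n = 5). Control cells stood in PBS alone (n = 3), and neither their time in PBS nor a recovery period is given in the sources used here, so peroxide and a return to medium cannot be told apart as the source of a difference. A low-dose group (100 µM for 15 min, then the same recovery, n = 4) serves below to show where the high dose differed from a milder treatment. All cells came from 1 clone, and separate cultures are not stated for the replicates, so the p-values rest on a spread that may be technical.

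Hydrogen peroxide crosses membranes, oxidises protein thiols and, with iron, gives radicals that break DNA. Cells remove it with catalase, peroxiredoxins and glutathione peroxidases. Oxidised or unfolded protein is known to switch on the heat shock, metal and Nrf2 responses, while broken DNA switches on p53. Embryonic stem cells in culture hold their pluripotent state through LIF, FGF, BMP and Nodal signals, and a share of them can drift towards primitive endoderm, the lineage that lines the yolk cavity.

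Each array gave 1 MAS5 signal per probe set, on a linear scale. Of the 8695 probe sets tested with limma (Benjamini-Hochberg adjusted p under 0.05), 494 were higher at the high dose (5.68%) and 524 were lower (6.03%). Counted by gene, with the brightest tested probe set standing for each of 6414 genes, 344 were higher (5.36%) and 439 lower (6.84%), around a median log2 change of -0.01. Of the genes called, 91 rose and 92 fell at least 2-fold. To see which calls rest on a single choice or array, the comparison was repeated under 24 alternatives (other scalings, offsets, filters and variance models, and each array left out in turn). Wherever they were tested, 90 genes stayed higher (1.4% of all genes) and 146 stayed lower (2.28%). Genes said below to have kept their call are of that set. With every array scaled to a common median, 311 probe sets were higher and 614 lower. Without control replicate 2 the 1018 calls became 490, and without control replicate 3 they became 599.

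The scale of the arrays differed at its top. The brightest probe set read between 7206 and 8904 on the control arrays and between 19733 and 34685 on the high-dose arrays, and no control array had a probe set above 10000 while the high-dose arrays had 53 to 83. Probe sets with a control mean above 2000 are therefore marked as bright below, since a ceiling on the control arrays is possible there. Of 420 bright probe sets 122 were higher (29%) and 13 lower (3.1%). Under quantile normalization, which gives all arrays the same distribution, 43 of them were higher and 91 lower, and without control replicate 2 it was 79 higher and 7 lower. Of the 8275 others, 372 were higher (4.5%) and 511 lower (6.18%). With a common median these became 234 and 604, and the calls in all fell from 883 to 404 without control replicate 2 and to 499 without control replicate 3. Control replicate 1 stood apart from the other controls. It read below both of them by over 1.5 times for 713 of the 6414 genes and above both for 262. Its 3′/5′ signal ratio for the Actb control probe sets was 2.0 against 0.871 and 0.921. For the Gapdh control probe sets its ratio did not stand apart, at 0.779 against 0.588 and 0.831.

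**Figure D1:**
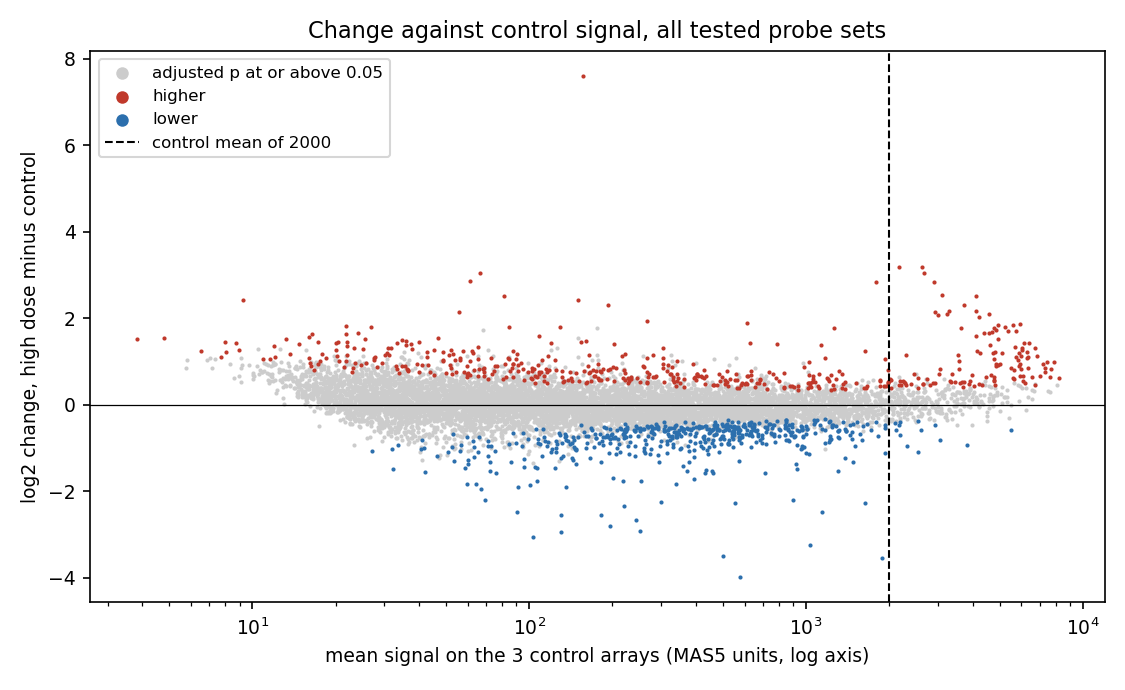
Log2 change between high dose and control (vertical) against the mean signal of the 3 control arrays (horizontal, log axis in MAS5 units), 1 point per tested probe set, coloured by limma's call. To the right of the dashed line at 2000 lie 420 bright probe sets, of which 122 were higher and 13 lower.

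The cells read as embryonic stem cells in both groups. The summed signal of 9 defining markers was 25199 to 28660 in the controls and 29259 to 34766 at the high dose. Of these markers 2 rose, 1 fell and 6 did not pass. The largest parts of the control sum came from bright probe sets (Dppa5a, Pou5f1, Sox2 and Nanog, with control means of 6071, 4319, 3648 and 3461). A ceiling on the control arrays is therefore possible for this sum. The summed signal of 8 primitive endoderm markers was 4374 to 5804 in the controls and 505 to 712 at the high dose. Col4a1 and Col4a2 gave the largest parts of the control sum (means of 1877 and 1031). Of the 8 markers 7 fell, while Gata4 did not pass (means of 209 and 194, log2 change -0.11, limma adjusted p = 0.84). Fibroblast feeder markers (586 to 750 against 677 to 909) and neural markers (1545 to 2031 against 1667 to 2092) had overlapping sums, and none of their tested members passed.

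The 4 largest falls were of genes on the endoderm list (Dab2, Col4a1, Cubn and Col4a2). Of 21 tested, 15 fell, 1 rose and 5 did not pass, with a median log2 change of -1.90 against -0.01 for all genes, and 14 kept their call. Dab2, an endocytic adaptor, read 515, 567 and 649 on the control arrays and 14.0, 44.1, 31.4, 38.1 and 15.2 on the high-dose arrays. It read 957, 1102, 1127 and 1167 at the low dose, so the high-dose arrays lay far under both other groups. Its log2 change was -4.00 ± 0.24 (SE, limma adjusted p = 2.4e-08). Cubn, an endocytic receptor, changed by -3.50 and the growth factor receptor gene Pdgfra by -2.92. With 4 times the offset added before taking logs the changes were -3.18 for Dab2, -2.83 for Cubn and -2.15 for Pdgfra. In 5 of the 15 endoderm genes that fell control replicate 1 read over 1.5 times both other controls, against 262 of all 6414 genes. Leaving out this array is among the alternatives, so the 14 genes above also kept their call without it. Why it read higher in some of these genes was not tested. In bulk RNA, fewer cells of a type and less RNA per cell cannot be told apart, here and below.

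The inducible Hsp70 genes Hspa1a and Hspa1b encode near-identical chaperones that bind unfolded protein, and lie side by side on chromosome 17. Their 250 bases before the RefSeq start (assembly GRCm38.p6, minus strand, chr17:34972157-34972406 for Hspa1a and chr17:34959239-34959488 for Hspa1b) are shown because the inducible Hsp70 pair is the classic target of the heat shock response. Capitals mark a match to the paired heat shock element GAANNTTC or TTCNNGAA, both of which read the same on either strand.
Hspa1a: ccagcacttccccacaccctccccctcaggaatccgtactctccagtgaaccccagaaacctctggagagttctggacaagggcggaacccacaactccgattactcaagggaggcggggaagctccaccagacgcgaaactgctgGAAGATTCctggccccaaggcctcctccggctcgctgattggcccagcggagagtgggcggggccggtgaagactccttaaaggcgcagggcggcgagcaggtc
Hspa1b: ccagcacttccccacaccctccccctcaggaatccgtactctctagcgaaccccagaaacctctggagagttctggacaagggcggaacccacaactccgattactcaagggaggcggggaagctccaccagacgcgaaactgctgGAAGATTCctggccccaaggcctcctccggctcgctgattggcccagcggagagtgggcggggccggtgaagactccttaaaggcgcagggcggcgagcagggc
The 2 stretches are alike at 247 of 250 positions, and each holds 1 match that begins 104 bases before the start. Of 40 tested heat shock list genes with a promoter in the table, 12 hold such a match (30%), against 14.5% of all 27025 genes there (12.8% of 32851 promoters). Of the 5 that rose 4 hold it, the near-identical Hspa1a and Hspa1b among them, and of the 3 that fell 0 do. A match describes the sequence only.

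Hspa1a read 73.0, 61.4 and 64.5 on the control arrays and 568, 369.7, 949.9, 611 and 763 on the high-dose arrays. All 5 high-dose arrays lay at least 5 times above the highest control. The log2 change was 3.05 ± 0.24 (SE, limma adjusted p = 5.3e-07), and the difference from the low dose (139, 90.4, 89.1 and 139) was 2.37 (adjusted p = 1.5e-06). Hspa1b read 114, 127 and 117 on the control arrays and 238, 246, 550.0, 358 and 383 on the high-dose arrays, again with no overlap, a log2 change of 1.43 ± 0.22 (SE, limma adjusted p = 0.00045). Probe sets of so alike a pair may catch each other's RNA, so the 2 values are not independent. Hsp90aa1, the stress-inducible Hsp90, is bright: it read 3169.5, 2338 and 3475 on the control arrays and 17908, 17933, 8633, 11322 and 9383 on the high-dose arrays, a log2 change of 2.07 ± 0.24 (SE, limma adjusted p = 2.8e-05), and kept its call. Its low-dose arrays read 7645, 11062, 8536 and 7750, overlapping the high dose. The difference of 0.52 between the doses did not pass (limma adjusted p = 0.087).

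Of the 49 heat shock chaperones and co-chaperones tested, 7 rose, 3 fell and 39 did not pass, and the median log2 change was 0.07. Bag3, a co-chaperone of Hsp70 in selective autophagy, fell by 0.74 on the log2 scale (limma adjusted p = 0.0072), and Dnajb11, an Hsp40 of the endoplasmic reticulum, changed by -0.87. Both kept their call. The mitochondrial chaperonin cofactor gene Hspe1 (bright) had a log2 change of 0.55, which did not pass without control replicate 2 (0.46), without control replicate 3 (0.57) or under quantile normalization (0.26).

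Metallothioneins, small cysteine-rich proteins that bind zinc and copper and react with oxidants, rose. Their promoters are shown with the metal response element core in capitals (TGCACNC or TGCGCNC, both strands), taken as the 250 bases before the RefSeq start on the plus strand of chromosome 8 in GRCm38.p6 (chr8:94178839-94179088 for Mt1, chr8:94172368-94172617 for Mt2).
Mt1: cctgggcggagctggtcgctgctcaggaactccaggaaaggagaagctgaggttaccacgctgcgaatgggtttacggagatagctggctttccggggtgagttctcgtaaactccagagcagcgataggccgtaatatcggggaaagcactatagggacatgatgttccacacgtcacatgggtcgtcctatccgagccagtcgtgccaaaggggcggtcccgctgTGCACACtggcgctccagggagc
Mt2: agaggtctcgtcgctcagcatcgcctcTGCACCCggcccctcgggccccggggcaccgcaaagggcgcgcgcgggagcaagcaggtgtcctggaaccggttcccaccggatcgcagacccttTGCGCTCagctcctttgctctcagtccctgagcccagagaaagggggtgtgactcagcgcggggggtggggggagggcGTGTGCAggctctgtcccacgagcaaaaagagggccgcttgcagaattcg
The stretch of Mt1 holds 1 match and that of Mt2 holds 3. Only these 250 bases were searched, so the counts are not those of the whole promoters. Of 13 tested metal response genes with a promoter in the table, 6 hold a match (46.2%), against 23.8% of all genes there (21.4% of promoters). All 4 of these genes that rose hold a match, and the 1 that fell does not. Again this describes the sequence only.

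Mt1 read 2676, 1674 and 1461 on the control arrays and 3631, 5604, 4052, 3239 and 3398 on the high-dose arrays. The high-dose arrays lay above the controls, but the low-dose arrays read 6753, 9536, 8097 and 6764, higher still: the high dose differed from the controls by 1.06 ± 0.20 (SE, limma adjusted p = 0.0034) on the log2 scale and from the low dose by -0.98 (adjusted p = 0.0011). Mt2, which is bright, read 4841, 1999 and 1936 on the control arrays and 14081, 12141, 11805, 9471 and 11423 on the high-dose arrays, a log2 change of 2.13 ± 0.25 (SE, limma adjusted p = 3e-05), and differed from the low dose by -0.08, which did not pass (adjusted p = 0.84). Control replicate 1 was the highest control for both genes. Of 16 metal response genes 5 rose, 1 fell and 10 did not pass, at a list median of 0.12. The zinc exporter gene Slc30a1 rose by 0.96, a call lost in 1 alternative, and Ireb2, which holds iron uptake and storage transcripts in balance, fell by 0.70 and kept its call. The transferrin receptor gene Tfrc rose by 0.98, yet without control replicate 1 its change was 0.41 (adjusted p = 0.18), and its call was lost in 14 alternatives, which include leaving out any 1 of the high-dose arrays.

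Of 21 genes that remove peroxide 1 rose, 2 fell and 18 did not pass, at a list median of -0.18, which is near the shares over all genes (5.36% higher, 6.84% lower). Gpx3, a secreted glutathione peroxidase, read 323, 469 and 517 on the control arrays and 163, 150.2, 137, 122 and 155 on the high-dose arrays, with no overlap. It read 887, 642, 515 and 1043 at the low dose. Its log2 change was -1.50 ± 0.21 (SE, limma adjusted p = 0.00017) against the controls and -2.29 (adjusted p = 4.4e-07) against the low dose. Of 34 Nrf2 targets and glutathione genes, 5 rose, 3 fell and 26 did not pass, and the median was 0.00. Hmox1, the haem-degrading enzyme often read as an oxidant sensor, read 1041, 1145 and 985 on the control arrays and 1906, 1876, 1607, 1503 and 1489 on the high-dose arrays. All high-dose arrays lay above the controls, with a log2 change of 0.65 ± 0.12 (SE, limma adjusted p = 0.0025) and a difference of 0.58 (adjusted p = 0.0011) from the low dose. Gstp1, a glutathione transferase, read 1109, 1591 and 1732 on the control arrays and 509, 488, 639.5, 597 and 639 on the high-dose arrays and fell by 1.33. Me1, which makes cytosolic NADPH, changed by -1.14. Hmox1, Gstp1 and Me1 kept their calls, while Gstt1 (log2 change 1.02) and Gstm2 (0.77), further glutathione transferases, lost theirs without control replicate 1 (0.75 and 0.69), and Gstm2 also without control replicate 2 (0.74).

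**Figure D2:**
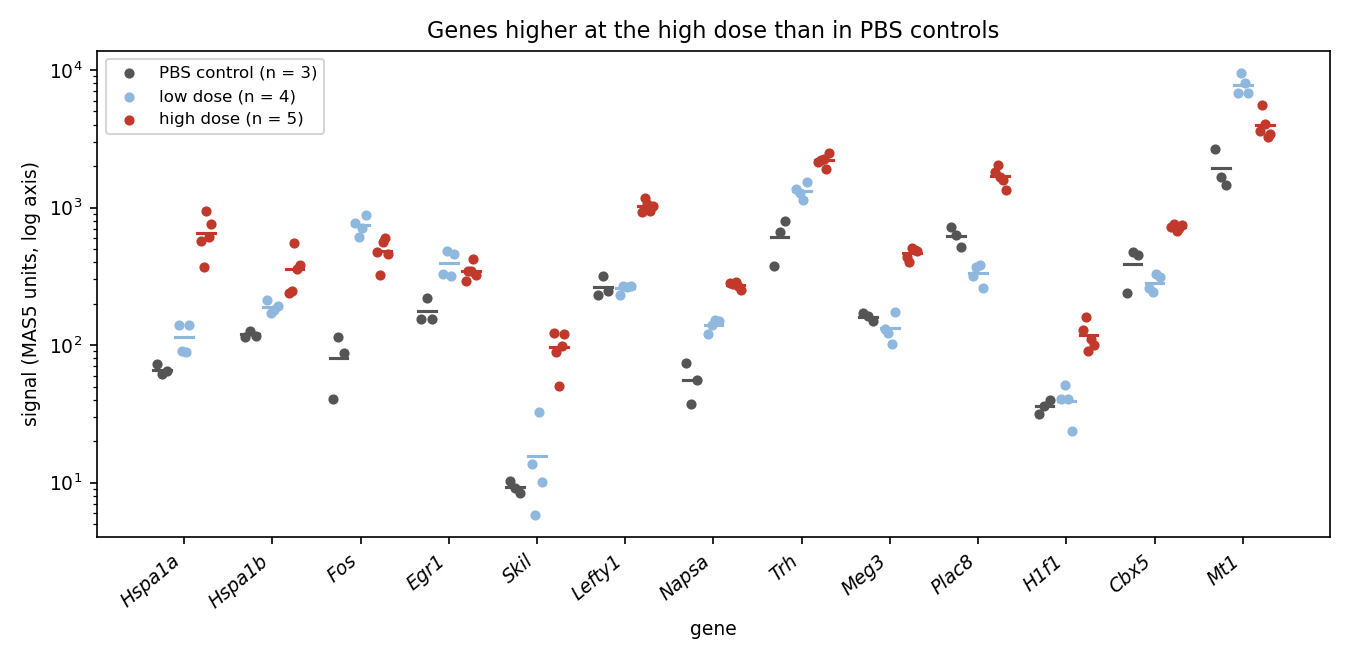
Signal of 13 genes that rose, on a log axis in MAS5 units, 1 point per array with the group mean as a bar: PBS control in grey, low dose in blue, high dose in red. High-dose arrays lie above the control arrays for each gene, with Skil between 50.6 and 122 against 8.34 to 10.3. The low-dose means of Fos, Egr1 and Mt1 lie higher still.

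Immediate-early genes, which growth factors and stress switch on within minutes, moved both ways. Of 43 tested 8 rose, 4 fell and 31 did not pass, at a list median of 0.07. Fos, a subunit of the transcription factor AP-1, read 40.3, 115 and 86.9 on the control arrays and 476, 322, 559.9, 605 and 462 on the high-dose arrays, with a log2 change of 2.51 ± 0.25 (SE, limma adjusted p = 6.2e-06). The low-dose arrays read 768, 616, 710.4 and 878, and the difference of -0.62 between the doses did not pass (adjusted p = 0.052, and 0.048 under quantile normalization). Fosb, its close relative, changed by 0.95 and the zinc finger gene Egr1 by 0.94, from 156, 219 and 155 on the control arrays to 291, 347, 346, 421 and 322 on the high-dose arrays. These 3 kept their calls. Rhob, a small GTPase of endosomes, had a log2 change of 0.76 that was lost without control replicate 2 (0.67). Among the falls, Id1, an inhibitor of differentiation factors downstream of BMP, changed by -0.72 and kept its call. The apoptosis regulator gene Ier3 changed by -1.53, by -1.23 without control replicate 2 and by -1.20 without control replicate 3, where it no longer passed, and by -2.15 without control replicate 1.

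Of 27 p53 targets tested none rose by limma, 3 fell and 24 did not pass, and the median was -0.16 (9 had an unadjusted p under 0.05). At 5.36% higher and 6.84% lower over all genes, these counts do not set the list apart. Mdm2, the ubiquitin ligase that p53 induces against itself, read 832, 690.1 and 551 on the control arrays and 421, 379.8, 721, 668 and 459 on the high-dose arrays. These ranges overlapped (-0.40, limma adjusted p = 0.25). The low-dose arrays read 2036, 2832, 2594 and 1770.2, so the high dose lay -2.12 (adjusted p = 1.2e-06) from the low dose on the log2 scale. Cdkn1a, the p53-induced inhibitor of cyclin-dependent kinases, had a change of -0.05 against the controls and of -1.02 (adjusted p = 0.00037) against the low dose. Atf3, a stress transcription factor, had 0.31 and -1.57 in the same order, the second with adjusted p = 5.2e-05. Between the doses 1858 of 6414 genes (29%) passed. Apaf1, the scaffold of the apoptosome, read 390.0, 468 and 460.1 on the control arrays and 194, 169, 224, 237 and 209.5 on the high-dose arrays and fell by 1.06 with no overlap (adjusted p = 5.7e-05).

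Among 34 apoptosis regulators 2 rose, 1 fell (Apaf1) and 31 did not pass. Casp2, an initiator caspase, changed by 0.71 and Htra2, a mitochondrial protease released in apoptosis, by 0.65. All 3 kept their calls. Further probe sets did not pass, with 0.50 for Casp2 and the opposite direction, -0.69, for Htra2. Of 50 DNA repair and damage checkpoint genes 2 were higher, 4 lower and 44 not passing, near the shares over all genes, with a median of -0.04. None of those 6 kept its call. Xrcc6, the Ku70 subunit that binds broken DNA ends, changed by -0.58 and lost its call in 1 alternative. The helicase gene Ercc3 of nucleotide excision repair changed by -0.86, and by -0.68 without control replicate 2, where it did not pass.

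Amino acid and translation stress genes rose in a few members. Of 32 genes of the unfolded protein and integrated stress response 5 rose, 1 fell and 26 did not pass, at a list median of 0.10. Their promoters were searched for the amino acid response core TGATGNAA. Of 28 with a promoter 5 hold it (17.9%), against 3.91% of all genes there (3.45% of promoters). Of the 5 that rose only 1 holds it, and the 1 that fell does not. Psat1, an enzyme of serine synthesis and a bright probe set, read 3534, 2789.9 and 2797 on the control arrays and 5897, 5180.4, 5361, 5321 and 5013 on the high-dose arrays, and 1671, 1928, 1869.7 and 1707 at the low dose. The high dose lay above both, by 0.82 ± 0.12 (SE, limma adjusted p = 0.00021) and by 1.57 (adjusted p = 4.9e-08) on the log2 scale. Asns, asparagine synthetase, is bright and had a log2 change of 0.64. Its other tested probe set had -0.01, and quantile normalization turned its change to -0.07. It also lost its call without control replicate 2 (0.57). Of 21 aminoacyl-tRNA synthetase genes, whose products charge tRNAs, 4 rose, none fell and 17 did not pass by limma (5 had an unadjusted p under 0.05), with a median of 0.24. None of the 4 kept its call. Aars, for alanine, had a change of 0.53 (0.43 without control replicate 2 and 0.49 without control replicate 3, neither passing). Sars, for serine, had 0.67 (0.46 without control replicate 2 and 0.72 without control replicate 3, with neither passing, nor without 4 of the high-dose arrays). Both differed more from the low dose, by 1.34 (adjusted p = 5.1e-07) for Aars and by 1.66 (adjusted p = 7.8e-06) for Sars.

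Regulators of Nodal and TGF-beta signalling held some of the clearest rises. Nodal ligands act through receptor kinases on Smad2 and Smad3, and Lefty1 is a secreted antagonist that Nodal itself induces. Lefty1 read 232, 318 and 246 on the control arrays and 929, 1175, 1068, 944 and 1028 on the high-dose arrays. It read 233, 267, 265 and 269 at the low dose, within the control range. The log2 change was 1.92 ± 0.13 (SE, limma adjusted p = 8.9e-08) and the difference from the low dose 1.95 (adjusted p = 1.5e-08). Skil, a corepressor that binds Smads, read 10.3, 9.08 and 8.34 on the control arrays and 122, 89.6, 50.6, 99.0 and 121 on the high-dose arrays. With all controls near the added offset of 10.1, its log2 change of 2.41 ± 0.33 (SE, limma adjusted p = 0.00015) depends on that offset (1.44 with 4 times the offset, 3.19 with a floor instead). The low-dose arrays read 13.6, 5.84, 32.9 and 10.2. Of 29 regulators tested 5 rose, 1 fell and 23 did not pass, at a list median of 0.05. Only Lefty1 and Skil kept their calls. The receptor gene Tgfbr1 had 1.35 and lost its call without control replicate 1 (1.08) and without control replicate 3 (1.24). With 4 times the offset it had 0.67.

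Among the FGF, LIF and receptor kinase genes, 2 rose, 5 fell and 27 of 34 did not pass, at a list median of -0.16. Lifr, the LIF receptor, read 329, 354 and 259 on the control arrays and 207, 123, 148, 177 and 158 on the high-dose arrays and changed by -0.92 ± 0.16 (SE, limma adjusted p = 0.002). Socs3, the feedback inhibitor of LIF signalling, read 746, 1113 and 1133 on the control arrays and 481, 459, 422, 415 and 439 on the high-dose arrays and changed by -1.13 ± 0.16 (SE, limma adjusted p = 0.00031). Both fell without overlap. Its relative Socs2 went the other way, by 0.71. Fgf4, made by pluripotent cells, is one of the few bright probe sets that fell: it read 2388, 2745 and 2643 on the control arrays and 1722, 1782, 1684, 1643 and 1787 on the high-dose arrays, a change of -0.58 ± 0.12 (SE, limma adjusted p = 0.0041). The receptor gene Fgfr3 rose by 0.90 and Egfr, off the list, fell by 1.48 (-0.85 with 4 times the offset). All 6 genes kept their calls. Of 15 BMP genes 2 fell (Id1 and Bmp6, a ligand, at -1.55, or -0.77 with 4 times the offset) and none rose by limma (2 had an unadjusted p under 0.05).

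Of 33 pluripotency genes tested 6 rose, 1 fell and 26 did not pass, at a list median of 0.11. Only Lefty1 and Fgf4, named above, kept their calls. Nanog, a core factor of the network and bright, had a log2 change of 0.51 that did not pass without control replicate 2 (0.48), without control replicate 3 (0.48) or under quantile normalization (0.24). Dppa5a, also bright, had 0.66, but -0.50 under quantile normalization. It also missed the threshold without control replicate 2 (0.53) and without control replicate 3 (0.69). Pou5f1 (0.47) and Sox2 (-0.23), the other core factors, are bright too and did not pass. Under quantile normalization they had -0.16 and -0.46, and Sox2 then passed (adjusted p = 0.012).

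Outside the endoderm list the largest fall was that of Hs3st1, which adds a sulfate to heparan chains. It read 182, 58.1 and 70.4 on the control arrays and 1.10, 2.60, 3.06, 2.06 and 1.35 on the high-dose arrays. All high-dose values lay under the added offset, and the log2 change of -3.07 ± 0.31 (SE, limma adjusted p = 7.8e-06) shrinks to -1.67 with 4 times the offset. The low-dose arrays read 162, 101, 124 and 85.9. Amot, a scaffold that binds the Hippo effector Yap, read 216, 240.4 and 205 on the control arrays and 34.0, 28.4, 46.1, 31.0 and 38.0 on the high-dose arrays, and 440.2, 466, 557 and 468 at the low dose. It fell below both, by -2.35 ± 0.16 (SE, limma adjusted p = 1e-07) and -3.44 (adjusted p = 3.7e-10). The forkhead factor gene Foxq1 read 71.7, 91.6 and 108 on the control arrays and 21.1, 3.45, 4.22, 7.45 and 7.19 on the high-dose arrays, against 267, 284, 374 and 442 at the low dose. Its change was -2.48 ± 0.27 (SE, limma adjusted p = 2e-05) against the controls and -4.27 (adjusted p = 7.7e-09) against the low dose. The first shrinks to -1.42 with 4 times the offset. Of the 5 high-dose values 4 lie under the added offset itself, and all 5 lie under 4 times that offset.

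Serpinh1, the collagen chaperone of the endoplasmic reticulum, read 983, 824 and 883 on the control arrays and 175, 151, 203, 218 and 181 on the high-dose arrays, a log2 change of -2.22 ± 0.14 (SE, limma adjusted p = 3.4e-08). P4ha1 and P4ha2, which hydroxylate prolines of collagen, changed by -1.17 and -0.96. Of 38 chaperones and folding enzymes of the endoplasmic reticulum 9 fell, 2 rose and 27 did not pass, at a list median of -0.30 against -0.01 for all genes. Further members that fell and kept their calls were Pdia3 (-0.83) and Pdia5 (-0.98), which form disulfide bonds, and Rpn1 (-0.83), part of the enzyme that attaches sugar chains. Serpinh1 and both prolyl hydroxylase genes fell together with the collagen IV genes Col4a1 (-3.56) and Col4a2 (-3.25) of the endoderm list.

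Lysosomal enzymes fell in 7 of 38 members and rose in 2, with 29 not passing and a median of -0.11. Ctsh, the cysteine protease cathepsin H, read 382, 101 and 105 on the control arrays and 8.45, 17.2, 18.9, 10.1 and 19.3 on the high-dose arrays, a change of -2.81 ± 0.36 (SE, limma adjusted p = 7.6e-05). Control replicate 1 was far above the other controls, and without it the change was -2.21. It was -1.91 with 4 times the offset and -3.46 with a floor. Lgmn, an asparaginyl protease, read 560.1, 307 and 319 on the control arrays and 83.7, 104, 135, 112 and 113 on the high-dose arrays and changed by -1.72 ± 0.20 (SE, limma adjusted p = 2.7e-05). Cathepsins L (Ctsl, -1.12) and Z (Ctsz, -1.09) and the mannosidase gene Man2b1 (-0.94) fell as well and kept their calls. Against these, Napsa, an aspartic protease, read 74.5, 37.2 and 55.4 on the control arrays and 284, 276, 289, 271 and 253 on the high-dose arrays, a rise of 2.15 ± 0.18 (SE, limma adjusted p = 7.5e-07), and the membrane protein gene Lamp2 rose by 1.15.

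Of 55 genes of the actin cytoskeleton, adhesion and annexins 11 fell, 3 rose and 41 did not pass, at a list median of -0.09. Anxa2, which links membranes to actin, read 983, 902 and 899 on the control arrays and 293, 372, 308, 378 and 277 on the high-dose arrays. The low-dose arrays read 393, 456, 407 and 499, also under every control, and the difference between the doses was -0.42 (adjusted p = 0.017), or -0.31 without passing when arrays are scaled to a common median. The change against the controls was -1.49 ± 0.13 (SE, limma adjusted p = 2.1e-06). The keratin pair of simple epithelia, Krt8 and Krt18, changed by -1.58 and -1.70, the actin-severing protein gene Gsn by -1.90, the integrin gene Itga6 by -1.08, moesin (Msn) by -0.91 and Epcam by -0.97. Among those that rose, Cd24a, a small surface glycoprotein, changed by 1.01 and Anxa6 by 0.71. All of these kept their calls.

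**Figure D3:**
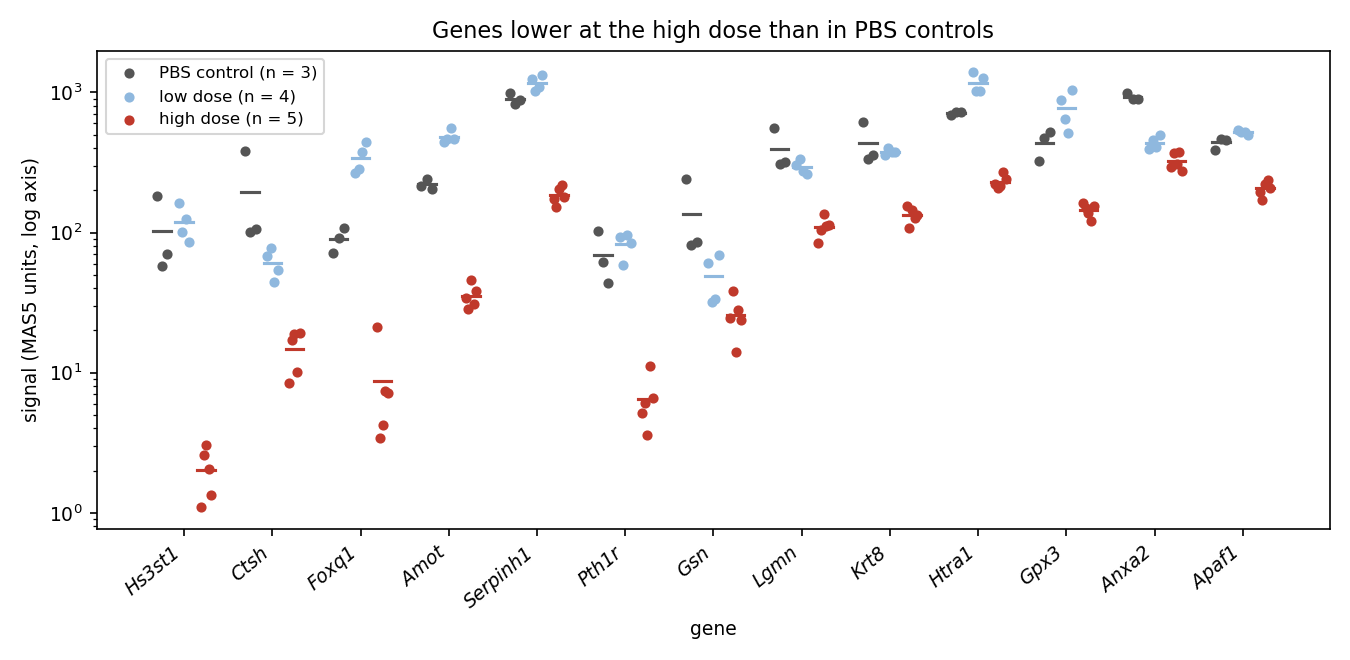
Signal of 13 genes that fell, on a log axis in MAS5 units, 1 point per array with the group mean as a bar: PBS control in grey, low dose in blue, high dose in red. High-dose arrays lie below the control arrays for each gene, with Amot between 28.4 and 46.1 against 205 to 240.4. The low-dose means of Hs3st1, Foxq1, Amot, Serpinh1, Pth1r, Htra1, Gpx3 and Apaf1 lie above the control means.

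Other secreted or surface genes among the 25 largest falls were those of tissue plasminogen activator (Plat, -1.78), tissue factor (F3, -1.76), the matrix protein Tinagl1 (-1.83), the parathyroid hormone receptor Pth1r (-2.21) and the secreted protease Htra1. Htra1 read 695, 719 and 724 on the control arrays and 221, 207, 216, 269.7 and 242 on the high-dose arrays, and 1387, 1022, 1016 and 1259.5 at the low dose. Its high-dose arrays lay below both, by -1.59 ± 0.13 (SE, limma adjusted p = 8.6e-07) and -2.28 (adjusted p = 2.2e-09). Stag3, a cohesin subunit of meiosis, changed by -1.77, and Cox6b2, the testis form of a cytochrome oxidase subunit, read 835, 1478 and 1604 on the control arrays and 419, 429.7, 457, 406 and 418 on the high-dose arrays, a change of -1.54 ± 0.17 (SE, limma adjusted p = 1.6e-05). All 7 kept their calls. With 4 times the offset the changes were -1.19 for Pth1r, -1.02 for Tinagl1 (-2.43 with a floor) and -1.15 for Plat. In 11 of these 25 genes control replicate 1 read over 1.5 times both other controls, against 20 of all 439 genes that fell. In 8 of the 25 largest rises it read under both other controls by over 1.5 times, against 713 of all 6414 genes. The endoderm marker sum fell alongside this group, from 4374 or more to 712 or less, and its part in these falls was not tested.

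Chromatin and developmental genes included rises at low signal. H1f1, a linker histone, read 31.5, 36.3 and 40.1 on the control arrays and 128, 161, 90.9, 111 and 100.2 on the high-dose arrays, and 40.8, 50.9, 40.9 and 23.8 at the low dose, close to the controls. Its change was 1.46 ± 0.23 (SE, limma adjusted p = 0.00073). Cbx5, the heterochromatin protein HP1 alpha, read 238, 478 and 455 on the control arrays and 719, 764, 671, 711 and 743 on the high-dose arrays, and 258, 244, 326 and 311 at the low dose. The high dose lay above both, by 0.93 ± 0.19 (SE, limma adjusted p = 0.0042) and 1.32 (adjusted p = 3.4e-05). A further probe set of Cbx5 had -0.14 and did not pass. Trim28, the corepressor of retroelements and bright, changed by 1.66 (0.95 under quantile normalization), and Smarca4, the ATPase of a remodelling complex, by -0.59. Of 51 genes of chromatin silencing and remodelling 4 rose, 4 fell and 43 did not pass. Meg3, a maternally expressed noncoding RNA of the Dlk1 domain, read 172, 162 and 149 on the control arrays and 437, 403, 507, 488 and 485 on the high-dose arrays, and 131, 123, 102 and 174 at the low dose. The high-dose arrays lay above both other groups, with 1.47 ± 0.16 (SE, limma adjusted p = 1.6e-05) against the controls and 1.75 (adjusted p = 4.4e-07) against the low dose, but a further probe set of Meg3 had -0.94 and did not pass (adjusted p = 0.34). Of 22 imprinted genes 4 rose, 2 fell and 16 did not pass, at a list median of 0.14. Meg3 alone among the 6 kept its call. Grb10, a growth inhibitor, had 1.80, but 0.75 without control replicate 1 (adjusted p = 0.15) and 2.42 without control replicate 2, and its call was lost in 14 alternatives, array weights (1.06) among them.

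Of 26 neural genes 5 rose, 2 fell and 19 did not pass, at a list median of 0.39. Trh, the precursor of thyrotropin-releasing hormone, read 375, 662 and 801 on the control arrays and 2142, 2212, 2245, 1914 and 2489.7 on the high-dose arrays, a change of 1.89 ± 0.19 (SE, limma adjusted p = 6.2e-06), and 1359, 1267, 1137 and 1539 at the low dose. Only Trh and Stmn2, a tubulin-binding protein gene that fell by 0.76, kept their calls. The transcription factor gene Sox11 had 0.88, lost without control replicate 2 (0.73) and without control replicate 3 (0.70). The growth cone gene Gap43 had 1.01, lost without control replicate 2 (0.93) and without control replicate 3 (0.98). Both lay further from the low dose, Sox11 by 1.99 (adjusted p = 4.2e-06) and Gap43 by 2.08 (adjusted p = 6.3e-06).

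Plac8, a small cysteine-rich protein, read 727, 636 and 516 on the control arrays and 1809, 2041, 1655, 1584 and 1344 on the high-dose arrays, and 319.7, 370.2, 383 and 261 at the low dose, under every control. It differed by 1.41 ± 0.16 (SE, limma adjusted p = 2.6e-05) from the controls and by 2.31 (adjusted p = 2.3e-08) from the low dose. Further rises of at least 2-fold that kept their calls were those of the RNA helicase Ddx6 (1.80), the sialyltransferase St3gal3 (1.64), the homeobox factors Six2 (1.51) and Hoxd10 (1.35), the cAMP response factor Creb1 (1.44), the small GTPase Rap2a (1.41), the depalmitoylating enzyme Lypla1 (1.41) and Zfp59, a zinc finger protein (1.51). Several of these are dim, and with 4 times the offset the changes were 0.93 for St3gal3, 0.81 for Creb1 and 0.66 for Zfp59. For Ddx6 high-dose replicate 3 read 176 and the other high-dose arrays 519 or more.

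In metabolism, 4 of 11 bright genes of glycolysis rose and 1 fell. Over all 313 bright genes 23.6% were higher and 2.88% lower. Pkm, pyruvate kinase, changed by 1.68 (0.93 under quantile normalization) and Aldoa, an aldolase, by 1.19. Both are bright, and further probe sets, also bright, had -0.03 for Pkm and 0.24 for Aldoa without passing. Slc2a3, a glucose transporter, is bright and fell: it read 3033, 2282 and 2269 on the control arrays and 1124, 1216, 1093, 1257 and 1129.9 on the high-dose arrays, a change of -1.10 ± 0.13 (SE, limma adjusted p = 4.7e-05), and differed from the low dose by -1.33 (adjusted p = 1.2e-06). Its other tested probe set, dimmer, had 0.97, which did not pass (adjusted p = 0.26). Pfkm, a phosphofructokinase, changed by -0.90. Ldha, lactate dehydrogenase and bright, had 0.95, turned to -0.25 by quantile normalization. Of 28 glycolysis genes 4 rose, all bright, and 4 fell, 1 bright, with a median of 0.01 over the list. Acaa2, a thiolase of mitochondrial fat oxidation and bright, read 2079.7, 2318 and 2550.1 on the control arrays and 1337, 1345, 1186, 1113 and 1001 on the high-dose arrays and fell by 0.95. Of 117 solute carriers 15 fell, 5 rose and 97 did not pass, at a list median of 0.00. The amino acid transporter gene Slc38a4 rose by 0.77, and those of the creatine transporter Slc6a8 (-0.81) and the mitochondrial carrier Slc25a11 (-0.80) fell.

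Cell cycle genes showed small changes. Of 42 cyclins and mitotic regulators 4 rose and 4 fell, with a median of -0.06. Kif23, a kinesin of cytokinesis (-0.88), and the proliferation marker gene Mki67 (-0.69) fell and kept their calls. Among 43 replication genes 1 rose and 3 fell. Mcm3, a helicase subunit, rose by 0.54, while a further probe set of it (control mean 1075) had 0.07 and did not pass. Rrm2, which makes deoxynucleotides, read 2004, 2229 and 2272 on the control arrays and 1527, 1434, 1629, 1645 and 1598 on the high-dose arrays and fell by 0.47. Both are bright and kept their calls.

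**Figure D4:**
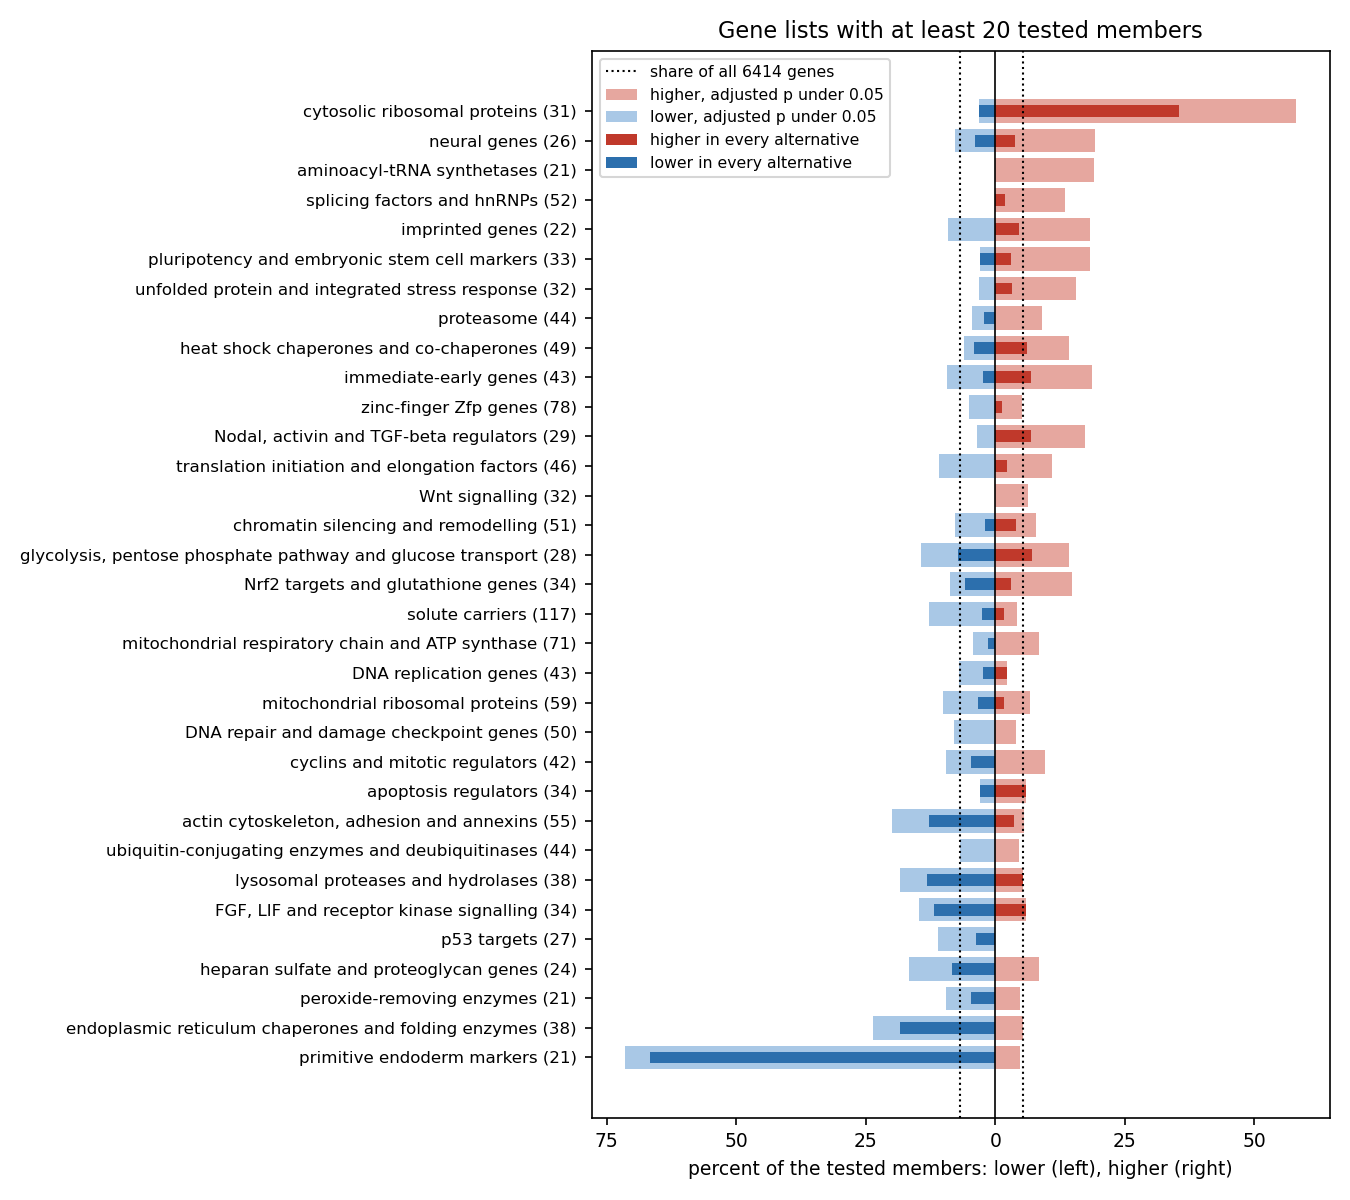
Share of tested members lower (left) or higher (right) at the high dose for lists with at least 20 tested members (number in brackets), ordered by median log2 change. Pale bars show calls at an adjusted p under 0.05, dark bars those kept in all 24 alternatives, and dotted lines the shares over all 6414 genes (6.84% lower, 5.36% higher). Endoderm markers reach furthest left (15 of 21) and cytosolic ribosomal proteins furthest right (18 of 31).

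Genes of protein synthesis rose mainly where they were bright. Of 31 cytosolic ribosomal protein genes 18 rose, 1 fell and 12 did not pass, at a list median of 0.82. Of the 18 that rose 16 are bright, and the 12 members that are not bright had a median of 0.16. Of bright members, Rpl8 changed by 2.09 (1.32 under quantile normalization), Rpl19 by 2.02 (1.37) and Rps18 by 1.85 (0.96). Eef1a1, bright, which brings charged tRNAs to the ribosome, read 4184, 3161 and 4947 on the control arrays and 30204, 29131, 20523, 18612 and 18829 on the high-dose arrays, a change of 2.51 ± 0.23 (SE, limma adjusted p = 2.5e-06), and 1.87 under quantile normalization. Rpl39l, a testis form of a ribosomal protein, fell by 1.43 and is not bright. Rpl41 was the largest change of all: it read 160.0, 267 and 44.2 on the control arrays and 34106, 34685, 23252, 19733 and 24340.4 on the high-dose arrays, a log2 change of 7.60 ± 0.37 (SE, limma adjusted p = 2.3e-09), or 6.94 without control replicate 3. Its low-dose arrays read 16232, 23838, 23082 and 14976, and the difference of 0.47 between the doses did not pass (limma adjusted p = 0.33). It was 1 of only 2 probe sets at or under 2000 in the controls and above 5000 at the high dose. All values at both doses lay above 8904, the highest signal on any control array. The change rests on 1 probe set, and what set the control arrays apart there was not tested. Of 52 splicing factors and hnRNPs 7 rose and none fell by limma (19 had an unadjusted p under 0.05), with a median of 0.16. Snrpb, a bright core protein of spliceosomal particles, changed by 1.14 and was the only 1 of the 7 to keep its call. Of 44 proteasome genes 4 rose and 2 fell, and Psmd8, a lid subunit, changed by -0.75. Of 59 mitochondrial ribosomal proteins 4 rose and 6 fell, and of 71 genes of the respiratory chain 6 rose and 3 fell.

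Probe sets of 1 gene read different parts of its transcripts and often gave different values. Of the called genes named here or in the closing section 40 had another tested probe set, 51 such sets in all, of which 10 made the same call, 40 did not pass (20 of them in the same direction) and 1, of Ahcy, made the opposite call. The same call was made for Cox6b2 (-1.54 and -2.27), Ddx6 (1.80 and 1.59), Creb1 (1.44 and 1.31), Bag3 (-0.74 and -0.72) and Sox11 (0.88 and 0.76), and by 1 of 2 further sets of Dab2 (-1.25). Further sets of the same genes that did not pass had 0.49 for Cox6b2 and -0.10 for Ddx6. No further set passed for Lamp2 (-0.08), Socs3 (-0.32), Lifr (-0.63 to 0.02) or Lypla1 (0.17 to 1.05).

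Some bright genes have a dimmer probe set of their own, with values away from the top of the scale. Such a set may read another part of the transcripts, and some lie near the background. Control means were 11.3 against 2813 for Etf1 and 22.5 against 5750 for Rps24. Whether the dimmer sets follow the RNA that the bright sets read was not tested. Of 74 genes called higher by a bright probe set, 15 had another tested probe set at or under 2000, 18 such sets in all. None of the 18 was higher, 2 were lower (of G3bp1 and Mkrn1) and 16 did not pass, and their median log2 change was 0.00 against 0.52 for the bright sets. Among genes called higher by a probe set at or under 2000, 15 of 88 other probe sets were higher too and 3 were lower. Among those called lower, 11 of 91 others were lower too and 0 higher. Of the 122 bright probe sets that were higher than in the controls, 46 were also higher than at the low dose and 1 was lower. Of the 13 that fell, 6 were lower than at the low dose and 3 were higher. Of 10 genes called lower by a bright probe set, 5 had another tested set at or under 2000 (Ahcy, Eif1ax, Gnas, Kpnb1 and Slc2a3), and none of those 5 passed. Ahcy had bright sets with opposite calls (0.49 and -0.38), and the falls of Eif1ax (-0.39) and Gnas (-0.46) were not kept in all alternatives. Of the bright falls that kept their calls, Kpnb1, the nuclear import receptor importin beta, read 2105, 2430.4 and 2038 on the control arrays and 1345, 1579, 1311, 1210.4 and 1287 on the high-dose arrays and changed by -0.70 ± 0.12 (SE, limma adjusted p = 0.001), while its dimmer set had -0.30 and did not pass.

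**Figure D5:**
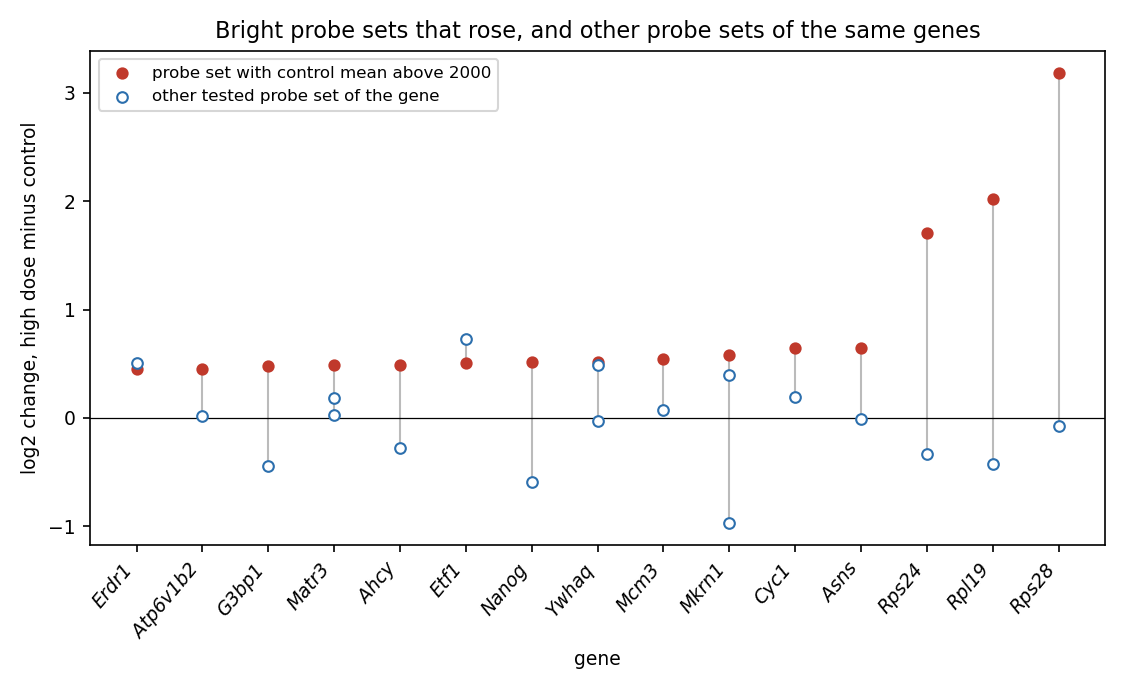
Log2 change between high dose and control for 15 genes with a bright probe set that rose (filled, control mean above 2000) and for their other tested probe sets (open). The filled points lie above 0 and none of the 18 open points passed as higher, with medians of 0.52 and 0.00.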

How the data were processed

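RNA of 12 mouse embryonic stem cell samples was read on Affymetrix MG_U74Av2 arrays. The deposited values are intensities on a linear scale, MAS5 signals per the submitters' processing notes, with scaling target and detection calls not given in the sources used here. The 2% trimmed means of the arrays differed by at most 0.0195%, so the deposited scaling was kept. Arrays have no read depth, and the number of arrays limits the precision.

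An offset of 10.1 (the 20th percentile of the signals) was added before log2 values were taken, so fold changes of dim genes are understated. The 66 control probe sets were left out, and 8695 of 12422 others, with a mean log2 value above the 30th percentile, were tested. The model, from limma 3.58.1 (R 4.3.3), held 1 mean for each of the groups over the 12 arrays, with eBayes and a trend. Tests were two-sided, with Benjamini-Hochberg adjustment and a threshold of 0.05. The brightest tested probe set stood for a gene. Symbols came from the platform annotation, updated by Entrez number through RefSeq records of GRCm38.p6: 10833 probe sets had 1 symbol (10817 matched), 396 had several and were not named, and 1193 were not listed. The steps were tested on simulated data.

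The rule for named genes took, among genes outside the endoderm list past the threshold with no overlap between control and high-dose arrays, the 25 largest rises and falls at a control mean at or below 2000 and up to 8 of each above it. It added up to 4 members of each of 43 gene lists (2 where none passed), 6 endoderm markers and a short list of stress, pluripotency and actin genes. The rule took 180 genes. Of these the text gives mainly those whose call held in every alternative. Other list members and the genes of the closing section were chosen after their values were seen. The comparison, members and lists were chosen with earlier results of these data known. Alternatives were quantile normalization, a common median, scaling on probe sets at or below 2000, a floor, 4 times the offset, other filters, no trend, array weights, only the 8 arrays compared, a replicate block, and leaving out each array.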

Additional observations from a re-analysis of the deposited data

Results flagged for a closer look

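In groups of 4 or 5 arrays, a single array lay apart from the others of its group in 11 of 282 groups of named genes, by Dixon's 95% criterion, which flags about 1 group in 20 by chance. At the high dose, Foxq1 read 21.1 on replicate 1 against 3.45 to 7.45 on the others, and Fgfr3 87.9 against 62.3 to 68.4, also on replicate 1. Col4a1 read 197 on replicate 4 against 130 to 139, and Cubn 66.8 on replicate 5 against 24.6 to 36.1. Rraga read 819 on replicate 2 against 1326 to 1518 on the others. All of these high-dose values lay on the same side of the control arrays as the rest of their group, narrowly so for Rraga, where the highest control array read 812.

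At the low dose, Ddx6 read 732 on replicate 4 against 384 to 429, and Anxa6 614 on the same array against 551 to 559. Gstm2 read 297 on replicate 2 against 182 to 186, and Hmox1 1269.8 on that array against 1047 to 1079. Replicate 1 held the low Lefty1 value, 233 against 265 to 269, and the high Psmd8 value, 558 against 414 to 433. What set these arrays apart was not tested.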

How the results depend on the processing

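Of the 1018 probe sets called, the number moved to 1655 with array weights, 597 with the replicate block and 490 to 1012 when any 1 array was left out. The 135 calls among bright probe sets became 87 with a common median and 86 to 136 without 1 array. The 883 calls among the others became 1477 with array weights, 482 with the replicate block and 404 to 876 without 1 array. Whether the replicate numbers pair control and high-dose arrays is not stated in the sources used here. Same-numbered arrays deviate from their group means with correlations of 0.053, -0.0061 and -0.054. Such low values show little shared deviation but cannot tell whether the samples were handled together. Quantile normalization reversed the log2 changes of Dppa5a (-0.50), Asns (-0.071) and Ldha (-0.25), all bright. Of 136 genes named and called, 133 kept their direction in all 24 alternatives and 114 also their call. The call of Xrcc6 (-0.51) and that of Slc30a1 (0.81) were lost with the replicate block only. Of arrays left out singly, control replicates 2 and 3 moved the calls most, to 490 and 599, and 15 and 12 of the named genes lost theirs, against 13 with the replicate block. Why these values moved was not tested. Against the low dose, changes to quantile normalization or a common median reversed none of the 92 named genes called, while 32 values moved or changed side of the threshold. With 3 control arrays, each of them weighs on every fold, and genes near the offset have folds set largely by it.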

Other observations

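Beyond the lists and the naming rule, 108 genes kept their call in all 24 alternatives, 36 higher and 72 lower, and a few are given here, chosen after their values were seen. App, the amyloid precursor protein, had a log2 change of -1.32 (limma adjusted p = 3.4e-05) and Adam10, a protease that cleaves it at the cell surface, -0.88 (adjusted p = 0.0037), though a dimmer probe set of Adam10 had -0.08. Txnip, which binds thioredoxin, changed by -1.15 (adjusted p = 0.00031), and its further probe set by -0.06 without passing. Both tested probe sets were lower for Rb1, the retinoblastoma protein (-1.23 and -1.27), and for Clu, a secreted chaperone (-1.22 and -1.37). Kpna2, an importin alpha, changed by -0.86 and Sat1, which acetylates polyamines, by -0.96. Among the rises, both probe sets of the transcription factor gene Mef2b were higher (0.78 and 1.78). Rragd and Rraga, GTPases that bring mTORC1 to the lysosome, changed by 1.03 and 0.71, and Elk1, a target of MAP kinases that binds the Fos promoter, by 0.92. Against the low dose, App differed by -1.48, Rragd by 1.14 and Mef2b by 0.82, while Rraga (-0.20) and Elk1 (0.14) did not pass.

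The remaining lists held few calls, read against 5.36% higher and 6.84% lower over all genes. Of 32 Wnt genes 2 rose and none fell, of 15 Hippo genes 1 rose and 1 fell (Amot), and of 16 NF-kB genes 1 rose and none fell. Of 24 heparan sulfate and proteoglycan genes 2 rose and 4 fell, of 16 hypoxia genes 1 rose and 3 fell, and of 17 cholesterol synthesis genes 1 fell. Translation factors (46) rose in 5 and fell in 5, zinc-finger Zfp genes (78) in 4 and 4, and ubiquitin enzymes (44) in 2 and 3. Of 6 histone genes 2 rose. Of 9 trophoblast markers 1 rose and 1 fell, and of 10 mesoderm and ectoderm markers 2 fell (Krt8 and Krt18).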
